A study of Rattus norvegicus with 8 samples.

Results

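Transcript levels of 7 subunits of the GABA-A receptor (Gabra2, Gabra3, Gabra4, Gabra5, Gabrb1, Gabrb2 and Gabrd) were examined in the medial thalamus of rats conditioned with tracheal occlusions and of surgical controls. The members were found by gene name among the probes that are not controls: 6 genes matched by the name in the array files and Gabra2 through the gene ID that the files gave in place of a symbol. Each gene had 1 probe, so 7 probes of 41012 and 7 genes of 18304 named genes on the array were described. All animals were conscious male Sprague-Dawley rats that had undergone surgery. Occlusion rats (n = 4) received repeated trials in which the trachea was blocked for 3 to 10 breaths, with about 30 s of recovery between trials, on each of 10 days. Control rats (n = 4) went through daily sessions over the same 10 days with no occlusion. All were killed by anaesthetic overdose within 10 min of the last session, and 1 µg of total RNA per rat was labelled with Cy3 and hybridised to 1 single-colour oligonucleotide array.

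The GABA-A receptor is a chloride channel built of subunits of several families, and the subunits it contains set where on the neuron it sits and how it responds to GABA. Receptors that contain a gamma subunit gather at synapses and carry brief inhibitory currents, whereas receptors that pair the alpha4 and delta subunits lie outside synapses, respond to low ambient GABA and carry a lasting, tonic current. In the thalamus the alpha4 and delta subunits, together with beta2, are known for this tonic inhibition of relay neurons, while alpha3 is the alpha subunit typical of the inhibitory neurons of the reticular nucleus. Gabra4 and Gabrd were therefore set against the other 5 members. That grouping is a simplification, since Gabrb2 serves receptors of both kinds and Gabra5 is known largely outside synapses in the hippocampus.

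The probes that carried the largest differences, for Gabrd and Gabra4, and the probe assigned to Gabra2 by gene ID alone are shown here by the first 30 of their 60 bases, in the 5′ to 3′ direction as deposited. In rat assembly rn3, which the array files use, the Gabrd probe lies at chr5:172213695-172213755 on the minus strand and the Gabra4 probe at chr14:39124766-39124825 on the plus strand. The Gabra2 probe spans chr14:39664187-39665243 on the plus strand, 1057 bases for 60 probe bases, so its match is split on the genome. The remaining 4 probes lie on chromosomes X (Gabra3), 1 (Gabra5), 14 (Gabrb1) and 10 (Gabrb2). The exon or untranslated region under each probe was not looked up, because no annotation of rn3 was used.
Gabrd: attagttggcctgtccctgaagctgagcct
Gabra4: catggtctactgggtggtttatttatctaa
Gabra2: gatttgctgggccagtcaattgggaaggag

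Between 65.0% and 71.6% of the spots on an array were well above background and between 1.05% and 1.55% were saturated. Levels are given as log2 of the processed intensity minus the 75th percentile of the same array, a scale on which probes of different genes cannot be ranked against each other. All 7 member probes were well above background on all 8 arrays, none was saturated, and all 7 passed the filter on dim probes. The tissue label was checked with marker genes. Of 14 relay neuron markers on the array, 12 were well above background on every array. Adarb1 was so on every array where it had a value, which excludes occlusion rat 2, and Rgs16 on 4 occlusion and 3 control arrays. Among 11 markers of hippocampus and cortex, 4 did not pass the filter. Markers of neighbouring regions varied widely between arrays: the summed level of 6 habenula markers, relative to the 75th percentile, ranged over 3.29 to 16.4 in occlusion rats and 2.83 to 31.1 in control rats. Such sums take the genes that had a value on all 8 arrays and were saturated on none. The summed level of the 5 such hypothalamus markers ranged over 0.41 to 7.43 in occlusion rats and 0.33 to 3.07 in control rats. These markers thus varied within both groups. The arrays lay on 2 slides, each scanned at its own time, with 2 arrays of each group per slide.

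Across the members, the subunits of the tonic receptor had the largest differences. Gabrd, which encodes the delta subunit, was 3.05-fold higher in occlusion rats and Gabra4, which encodes alpha4, was 1.99-fold higher. The other 5 differed by between −0.30 and 0.40 on the log2 scale. No member passed the threshold in limma after Benjamini-Hochberg adjustment over 27154 probes, and neither did any other probe (0 called, 0% of those tested), with a smallest adjusted p of 0.414. Before adjustment, Gabrd and Gabra4 were the 2 members with a p under 0.05, both higher in occlusion rats, where 7.05% of all probes had such a p with a higher level and 3.74% with a lower one. Higher levels in occlusion rats were seen for 5 of the 7 members, and 56.6% of all probes lay on that side. The groups overlapped in all 7 members, where 4.12% of all probes had groups apart with occlusion rats higher and 2.25% with occlusion rats lower (6.37% in all).

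Gabrd had levels of 4.42, 3.91, 3.38 and 3.63 in occlusion rats 1 to 4, against 2.66, 1.505, 1.17 and 3.57 in control rats 1 to 4. The occlusion levels lay close together at the top, and 3 of the 4 were above every control. Occlusion rat 3 fell below control rat 4, so the groups overlapped. The means were 3.83 ± 0.45 in occlusion rats and 2.22 ± 1.1 in control rats (SD, n = 4 each), a difference of 1.61 (SE 0.51, 95% interval 0.44 to 2.78, limma adjusted p = 0.414). This difference was at the 99.9th percentile of all tested probes, and it was larger than the SD of either group. It amounted to 0.79 among the slide 1 arrays and to 2.43 among those of slide 2. The direction was the same on both slides, but the 2 control rats on slide 2 (2 and 3) were the lowest arrays, and whether the slides differed in the size of the difference was not tested. With the slide as a block the adjusted p was 0.227 (limma). Leaving out 1 rat at a time gave differences between 1.26 and 2.06.

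Gabra4 had levels of 0.60, 0.09, −0.45 and 0.27 in occlusion rats 1 to 4, against −0.58, −1.76, −1.03 and −0.09 in control rats 1 to 4. The order of the arrays was much like that of Gabrd: occlusion rat 1 was the highest, control rats 2 and 3 were the lowest, and occlusion rat 3 fell below control rat 4. The means were 0.13 ± 0.44 in occlusion rats and −0.87 ± 0.71 in control rats (SD, n = 4 each), a difference of 0.99 (SE 0.36, 95% interval 0.16 to 1.83, limma adjusted p = 0.418). Slide 1 alone gave 0.41 and slide 2 alone 1.58, and the difference lay between 0.69 and 1.25 with 1 rat left out. Across the 8 arrays the levels of Gabra4 and Gabrd had a Pearson r of 0.92 and a Spearman rho of 0.95, given as a description, since both genes share the same RNA samples and scaling. Many other genes were closer to each: of 11787 genes, Gabra4 ranked 281 by r with Gabrd, and Gabrd ranked 127 by r with Gabra4.

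**Figure D1:**
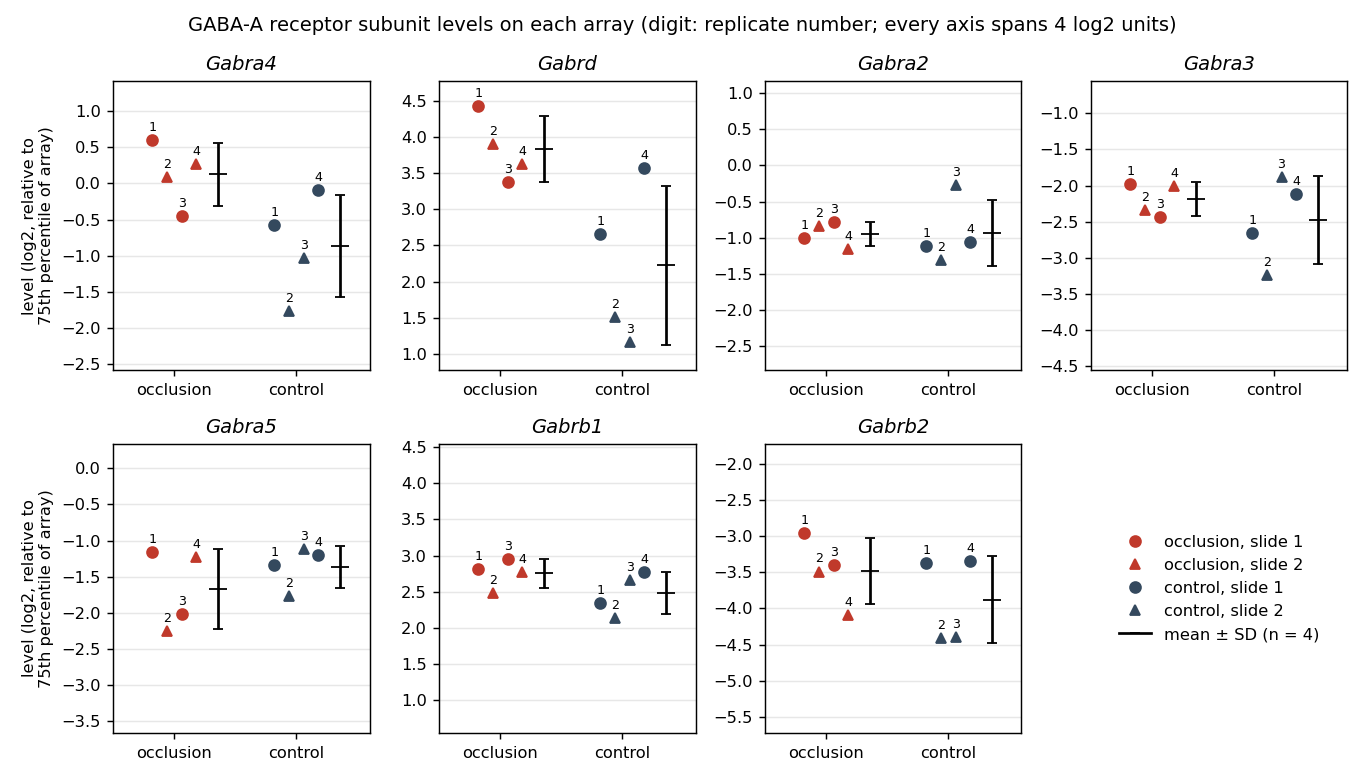
Level of each of the 7 subunits (vertical axis, log2 relative to the array's 75th percentile; every axis spans 4 units) in 4 occlusion and 4 control rats. Circles are arrays on slide 1, triangles arrays on slide 2, digits the replicate number, and the bar is the mean ± SD; 3 of the 4 occlusion rats lie above every control in the Gabra4 and Gabrd panels, while the groups overlap in all 7 panels.

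Among the alpha subunits of the other group, Gabra2, which encodes alpha2, had levels of −0.998, −0.84, −0.78 and −1.16 in occlusion rats and −1.12, −1.31, −0.27 and −1.06 in control rats. Its group means were almost equal, and control rat 3 was the highest array. The difference was −0.01 (SE 0.22, 95% interval −0.52 to 0.51, limma adjusted p = 0.994).

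Gabra3, the alpha subunit typical of reticular nucleus neurons, had levels of −1.98, −2.34, −2.44 and −2.001 in occlusion rats and −2.66, −3.24, −1.89 and −2.11 in control rats. The control rats spread more widely and enclosed the occlusion rats on both sides. The difference was 0.29 (SE 0.29, 95% interval −0.37 to 0.94, limma adjusted p = 0.743).

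Gabra5, which encodes alpha5, had levels of −1.16, −2.25, −2.02 and −1.22 in occlusion rats and −1.34, −1.77, −1.12 and −1.20 in control rats. Occlusion rats 2 and 3 lay below all controls, and the other occlusion rats lay within the control range. The difference of −0.30 (SE 0.28, 95% interval −0.94 to 0.33, limma adjusted p = 0.715) was the lowest among the members, with −0.32 on slide 1 and −0.29 on slide 2.

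The beta subunits form part of the GABA binding site and take part in receptors of both kinds. Gabrb1, encoding beta1, had levels of 2.81, 2.48, 2.95 and 2.77 in occlusion rats and 2.35, 2.14, 2.66 and 2.77 in control rats, and varied least over the occlusion arrays after Gabra2. Its difference was 0.27 (SE 0.17, 95% interval −0.12 to 0.67, limma adjusted p = 0.584).
Gabrb2, encoding the beta subunit that partners alpha4 and delta in relay neurons, had levels of −2.96, −3.49, −3.40 and −4.09 in occlusion rats and −3.38, −4.41, −4.39 and −3.34 in control rats. Control rats 2 and 3 were again the lowest, while occlusion rat 4 was well below the other occlusion rats. The difference was 0.40 (SE 0.33, 95% interval −0.36 to 1.16, limma adjusted p = 0.687), with 0.18 on slide 1 and 0.61 on slide 2. For these 5 subunits the 95% intervals contained 0, which does not show that their levels were equal: differences of up to 1.16 (Gabrb2) lay within them.

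**Figure D2:**
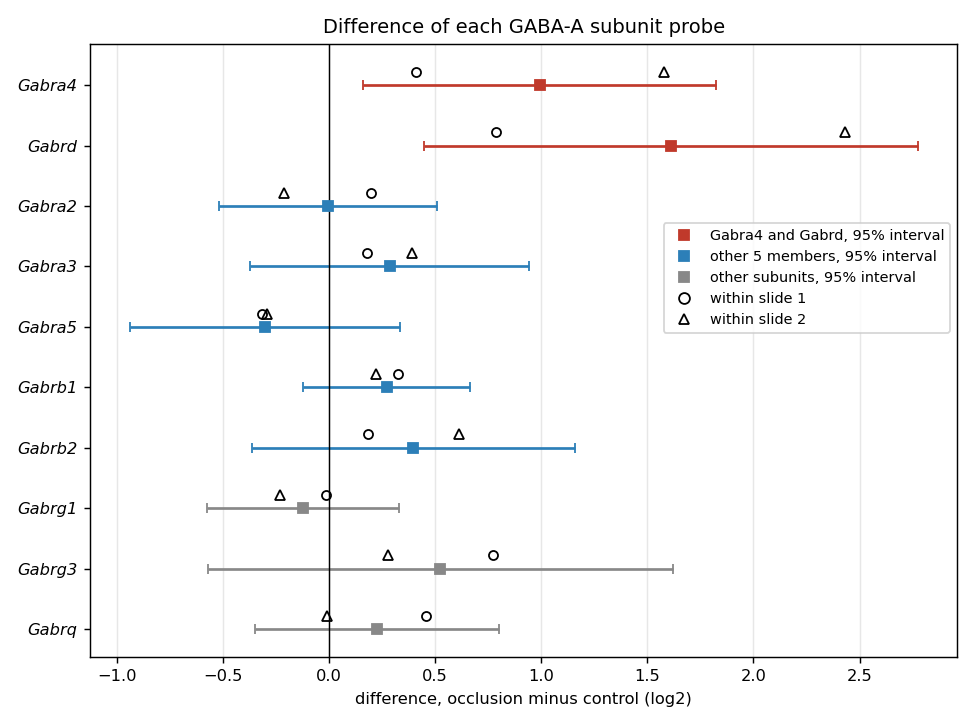
Difference in log2 level, occlusion minus control (horizontal axis), for the 7 members and for Gabrg1, Gabrg3 and Gabrq. Squares with bars are the limma estimate and its unadjusted 95% interval from all 8 arrays, open circles and triangles the difference within slide 1 and slide 2; the intervals of Gabra4 and Gabrd lie above 0, and both of their within-slide values are positive.

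To compare the 2 kinds of subunit within each rat, every probe was centred on its mean over the 8 arrays and the mean of the 5 other subunits was subtracted from the mean of Gabra4 and Gabrd. The resulting value was 0.87, 0.79, 0.10 and 0.59 in occlusion rats 1 to 4, against −0.23, −0.91, −1.43 and 0.23 in control rats 1 to 4. It was positive in all 4 occlusion rats and in 1 of the 4 control rats, and occlusion rat 3 overlapped with control rat 4. The means were 0.59 ± 0.35 in occlusion rats and −0.59 ± 0.73 in control rats (SD, n = 4 each), a difference of 1.17, for which no p is given because the members were chosen with results of these data known. On slide 1 alone it came to 0.49, and on slide 2 alone to 1.86. This difference came from Gabra4 and Gabrd, whose mean differed by 1.30. The mean of the other 5 was also higher in occlusion rats, by 0.13, which made the difference smaller. Counting Gabra5 with the extrasynaptic subunits reduced the difference to 0.53.

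**Figure D3:**
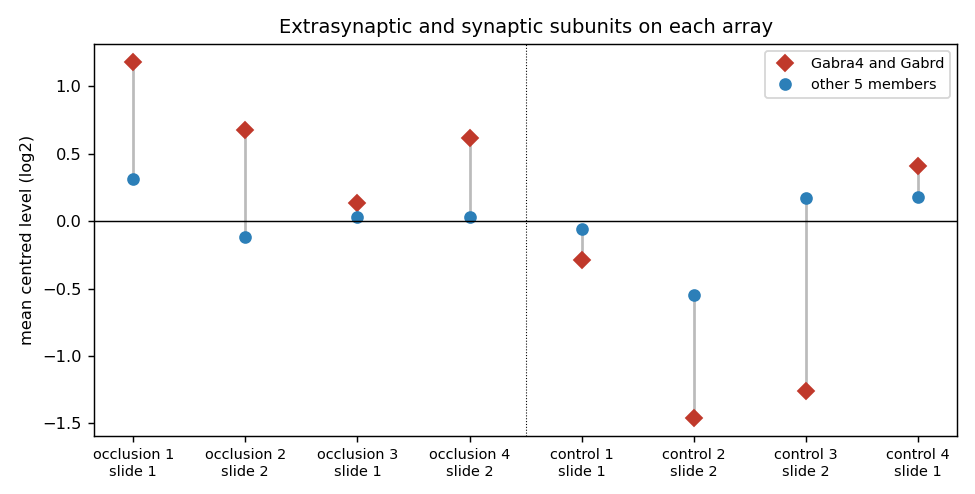
Mean centred level (vertical axis, log2) of Gabra4 and Gabrd (diamonds) and of the other 5 members (circles) on each array, with a grey line joining the 2 means of a rat and occlusion rats to the left. Diamonds lie above circles in all 4 occlusion rats and in control rat 4, and the widest gaps below are those of control rats 2 and 3 on slide 2.

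Markers of thalamic relay neurons moved with Gabrd and Gabra4. All 14 relay markers that passed the filter were higher in occlusion rats by their brightest probe. Their median difference was 0.68 on the log2 scale, against 0.04 over all tested probes. An unadjusted limma p under 0.05 was found for 7 of them, where 7.05% of all probes had such a p with a higher level. Other probes of Calb1 differed by −0.21, −0.20 and 0.34, and the other Ntng1 probe by 1.27. The probes of Calb2, Slc17a6, Prkcd and Adarb1 were saturated on 8, 6, 4 and 1 arrays. The summed level of the 10 markers that were measured on all arrays and never saturated ranged over 14.7 to 18.3 in occlusion rats and 8.32 to 16.7 in control rats. The 13 markers measured on all arrays include the saturated Calb2, Slc17a6 and Prkcd. Their mean centred level was 0.72, 0.44, 0.21 and 0.36 in occlusion rats 1 to 4, against −0.14, −0.82, −0.97 and 0.19 in control rats 1 to 4. Control rats 2 and 3, which were lowest in Gabrd, were also lowest in relay markers. In whole tissue, fewer cells of a type and less RNA per cell cannot be told apart, and the part of relay cell content in the differences of Gabrd and Gabra4 was not tested.

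Over the 8 arrays, Gabrd had a Pearson r of 0.997 with the relay marker mean (exact permutation p = 5.0e-05, and 0.00069 after adjustment over 14 relations of 7 members with 2 marker lists; Spearman rho 0.98, exact permutation p = 0.00040, adjusted 0.0056). Without control rats 2 and 3, the arrays farthest from the median, r was 0.98, and it was 0.99 after both group and slide means had been removed. Gabra4 had an r of 0.92 (exact permutation p = 0.00082, adjusted 0.0057) and a rho of 0.93 (exact permutation p = 0.0022, adjusted 0.016), with an r of 0.92 without those 2 rats and 0.82 after removal of group and slide means. The permutations treat the 8 arrays as exchangeable, although group and slide shift both measures, and the members and lists were chosen with results of these data known, so these p-values are no independent evidence. Gabrb2 had an r of 0.80 (exact permutation p = 0.018, adjusted 0.085) and a rho of 0.55 (exact permutation p = 0.17, adjusted 0.48), and its r was 0.21 without control rats 2 and 3, so the relation over all arrays rested on those 2. Its r was 0.84 after removal of the group means and 0.71 after removal of group and slide means. For Gabrb1, Gabra3, Gabra5 and Gabra2 r lay between −0.29 and 0.54, and none of them passed the adjustment. No member passed it against markers of reticular and other inhibitory neurons, where r ranged over −0.60 for Gabrd to 0.52 for Gabra2. Only 9 of the 13 markers in that mean were well above background on all arrays. Meis2, Six3, Isl1 and Cacna1i were not, so values at background level entered these r, which limits their reading.

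**Figure D4:**
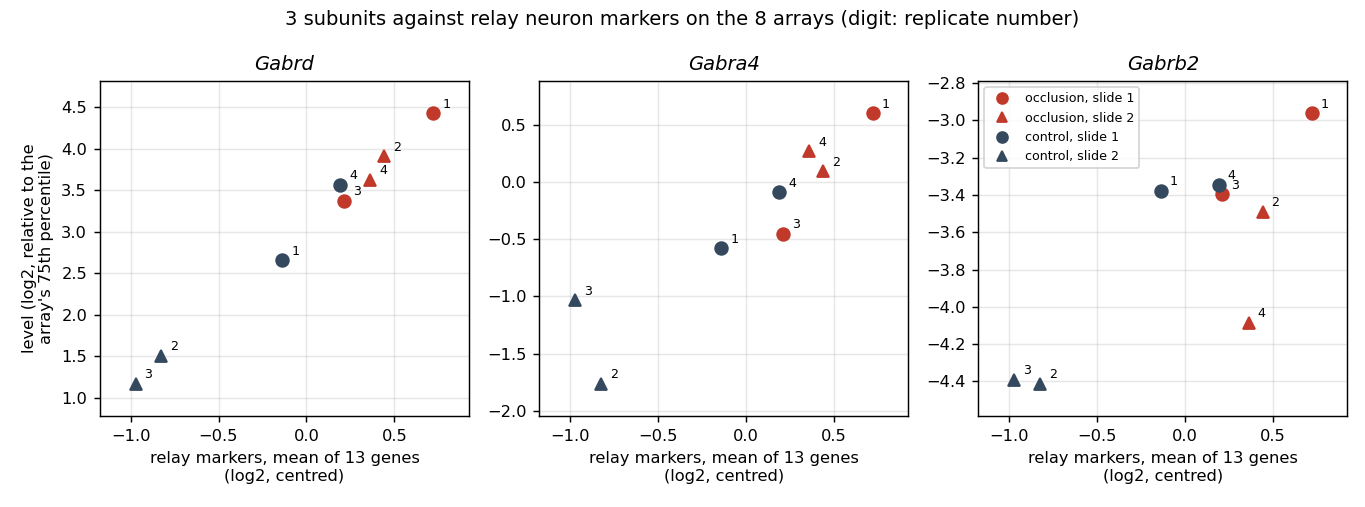
Levels of Gabrd, Gabra4 and Gabrb2 (vertical axes, log2 relative to the array's 75th percentile) against the mean centred level of 13 relay neuron markers (horizontal axis, log2) on the 8 arrays; colours give the group, circles and triangles slides 1 and 2, digits the replicate number. Gabrd falls on nearly a straight line (r 0.997), Gabra4 follows with more scatter (r 0.92), and in the Gabrb2 panel control rats 2 and 3 form a low pair apart from the other arrays.

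Other cell types also differed between arrays. Of the 13 markers of reticular nucleus and other inhibitory neurons that passed, 10 were lower in occlusion rats (median −0.69), with a summed level of 6.72 to 48.4 in occlusion rats and 22.9 to 61.1 in control rats. Gabra3, which belongs to those neurons by its known expression, had an r of 0.14 with the mean of all 13, the dim markers included. Of 10 oligodendrocyte markers, 8 were lower in occlusion rats (median −0.51), and the summed level of the 6 that were measured on all arrays and never saturated was 29.3 to 48.9 in occlusion rats and 36.1 to 66.3 in control rats. Of the 7 hippocampal and cortical markers that passed, 3 were higher and 4 lower in occlusion rats (median −0.80), and only 3 were well above background on all arrays. Their summed level was 2.29 to 3.44 in occlusion rats and 3.27 to 14.7 in control rats. The value of 14.7 was that of control rat 3, and the next highest was 5.71 in control rat 1. Medians of the 9 astrocyte and 10 microglia markers were −0.10 and −0.02. The part of these tissue differences in the subunit values was not tested.

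The other subunits of the receptor family were described as a list. All 12 listed genes were on the array, and 6 passed the filter, 4 of them higher in occlusion rats and 2 lower, with a median difference of 0.10 and none with an unadjusted p under 0.05. Gabrg1, a gamma subunit, had levels of −0.06, −0.04, 0.26 and −0.12 in occlusion rats and 0.15, −0.32, 0.62 and 0.07 in control rats, a difference of −0.12 (SE 0.20) with overlapping groups. Gabrq, which encodes the theta subunit, had levels of 0.44, −0.58, 0.07 and −0.45 in occlusion rats and −0.14, −0.80, −0.21 and −0.26 in control rats, a difference of 0.22 (SE 0.25), and its groups overlapped as well. Gabrg3 was well above background in 3 occlusion rats and 2 control rats and differed by 0.52 (SE 0.48). Gabra6, Gabre, Gabrp and the rho subunit genes Gabrr1, Gabrr2 and Gabrr3 did not pass the filter.

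Genes that place the receptor in the membrane were measured with 19 of 21 listed genes, all of which passed (12 higher and 7 lower in occlusion rats, median 0.07). An unadjusted limma p under 0.05 was found for 2 higher genes and 1 lower gene. Over all probes the shares with such a p were 7.05% higher and 3.74% lower. Groups that did not overlap were found for 2 genes, both higher and Igsf9b among them, against 4.12% of all probes. Igsf9b, an adhesion protein of inhibitory synapses, differed by 0.80 (SE 0.24), although only 2 control rats had it well above background. Slitrk3, another such adhesion protein, differed by 0.68 (SE 0.23), Plcl1, a binding protein of GABA-A receptors and their trafficking factors, by −0.61 (SE 0.22), and Iqsec3 by −0.23 (SE 0.22) with its brighter probe, which had values in only 2 occlusion rats and 3 control rats, and by −0.10 (SE 0.13) with a probe measured in all 8. Of the 7 chloride transport genes, which set the driving force of the receptor current, 3 were higher and 4 lower (median −0.03), and none had an unadjusted p under 0.05. Slc12a2, the chloride importer NKCC1, differed by −0.38 (SE 0.25) and the kinase gene Wnk1 by −0.29 (SE 0.23). Slc12a5, the neuronal chloride exporter KCC2, was counted as higher by its brighter probe (0.13), which was saturated on all 8 arrays. Its other probe differed by −0.07 (SE 0.13).

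Of 7 genes that make and handle the transmitter, 5 were lower in occlusion rats and 2 higher (median −0.54), and 4 of the lower ones had an unadjusted p under 0.05, against 3.74% of all probes. Gad1, which encodes the GABA-synthesising enzyme GAD67, differed by −2.50 (SE 0.65) with its brightest probe. The groups of that probe did not overlap, as in 2.25% of all probes with occlusion rats lower. Occlusion rat 3 (−0.83) and control rat 4 (−0.65) lay close together, however. Of the other Gad1 probes, the one that differed by −2.85 had groups apart and the one that differed by −2.88 had overlapping groups. Slc32a1, the vesicular GABA transporter, differed by −2.01 (SE 0.61), and Gad2, which encodes the enzyme GAD65 and was named after its values were seen, by −1.86 (SE 0.68). Each of these 3 was lower within both slides, and none passed the adjusted threshold. Gad1, Gad2 and Slc32a1 also belong to the list of inhibitory neuron markers above. Slc6a11, the uptake carrier of astrocytes, differed by 0.27 (SE 0.36) and Slc6a13 by 0.01 (SE 0.20).

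**Figure D5:**
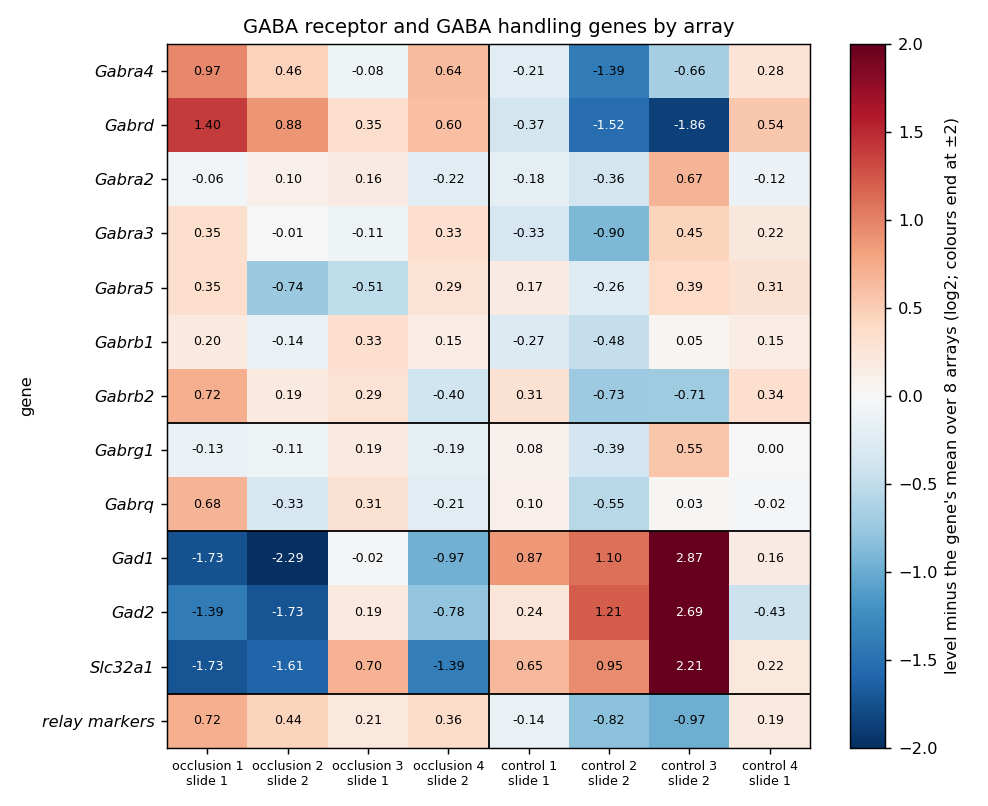
Level of each gene on each array minus the gene's own mean over the 8 arrays (log2; the numbers are in the cells, and colours end at ±2), occlusion rats left of the vertical line. From top to bottom the rows are the 7 members, the other subunits Gabrg1 and Gabrq, the genes Gad1, Gad2 and Slc32a1 of GABA synthesis and release, and the relay marker mean; Gabrd has the sign of the relay markers in all 8 columns, and Gad1, Gad2 and Slc32a1 are highest in control rat 3.

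No gene of the GABA-B receptor, the glycine receptor or neurosteroid synthesis passed the adjusted threshold. All 4 GABA-B receptor genes that passed were higher in occlusion rats (median 0.35). Among them Kctd16, an auxiliary subunit, differed by 0.82 (SE 0.27) with an unadjusted p under 0.05, Gabbr1 by 0.28 (SE 0.16) and Kctd12 by 0.06 (SE 0.16), while the Gabbr2 probe was saturated on 7 arrays. Of the 4 glycine receptor genes, Glra2 differed by 0.47 (SE 0.24), Glra1 by 0.25 (SE 0.40), Glra3 by −0.44 (SE 0.35) and Glrb by −0.45 (SE 0.36). Neurosteroids enhance receptors that contain delta, and of 6 genes of neurosteroid synthesis that passed, 3 were higher and 3 lower (median 0.01). Tspo, a mitochondrial protein linked to cholesterol import, differed by −0.44 (SE 0.17) with an unadjusted p under 0.05, Srd5a1 by −0.17 (SE 0.21) and Akr1c14 by 0.36 (SE 0.27). Dbi was counted as higher by its brighter probe (0.17), which was saturated on all 8 arrays, and its other probe differed by −0.25 (SE 0.13).

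The genes whose levels over the 8 arrays were most like each member were taken from 11787 other genes by Pearson r, as a description with no test. For Gabrd they were Prkcz (r 0.997), Atp2a1 (0.996), Ppm1j (0.993) and a probe now named Mboat4 (0.993). Prkcz, which encodes an atypical protein kinase C, is also the neighbour of Gabrd on chromosome 5 with 0 protein-coding genes between them in the RefSeq annotation of rat assembly GRCr8. Its own difference was smaller, 0.30 (SE 0.14), and the 2 genes had a Spearman rho of 0.98. For Gabra4 the most alike genes were Ptger3, a prostaglandin E2 receptor (r 0.984), Xkr4 (0.980), Shank3, a scaffold of excitatory synapses (0.979), and Ehbp1 (0.978). Ptger3 differed by 1.27 (SE 0.38) and Shank3 by 0.99 (SE 0.30). For the other members the closest were Smpd3 for Gabra2 (r 0.989), Ptk2b for Gabra3 (0.966), Mtmr6 for Gabra5 (0.971), Arhgap1 for Gabrb1 (0.978) and Cyp17a1 for Gabrb2 (0.981).

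Members that lie close together on chromosome 14 were also described. Their r cannot be set against that of Gabrd and Prkcz (r 0.997), because Prkcz was picked as the highest of 11787 genes. In the same RefSeq annotation Gabrb1, Gabra4, Gabra2 and Gabrg1 lie in this order on chromosome 14. Gabra4 had a Pearson r of 0.64 with Gabrb1 and −0.06 with Gabra2, and Gabrb1 had one of 0.38 with Gabra2. The r of Gabrg1 with these genes was not computed, but Gabra2 and Gabrg1 were both highest in control rat 3 and lowest in control rat 2. Between the groups, Gabra4 differed by 0.99, Gabrb1 by 0.27, Gabra2 by −0.01 and Gabrg1 by −0.12. Gabrd lies on chromosome 5, apart from all other members.

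Gabrd and Gabra4 had like levels across the arrays, although many other genes were closer to each of them. Their promoters are shown from 250 bases before to 50 bases after the gene start (RefSeq, rat GRCr8). Capitals mark matches on either strand to GGGCGG, the core bound by the SP family of factors, and to GCGNGGGCG, the core bound by the EGR family. The Gabrd window is chr5:171252660-171252959 on the minus strand and the Gabra4 window chr14:36944497-36944796 on the plus strand.
Gabrd: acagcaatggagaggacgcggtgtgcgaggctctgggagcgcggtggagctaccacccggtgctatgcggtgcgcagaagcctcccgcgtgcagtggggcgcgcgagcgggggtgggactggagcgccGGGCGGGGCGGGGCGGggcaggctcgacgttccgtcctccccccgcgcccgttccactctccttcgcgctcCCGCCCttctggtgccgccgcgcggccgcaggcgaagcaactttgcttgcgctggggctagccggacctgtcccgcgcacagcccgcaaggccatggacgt
Gabra4: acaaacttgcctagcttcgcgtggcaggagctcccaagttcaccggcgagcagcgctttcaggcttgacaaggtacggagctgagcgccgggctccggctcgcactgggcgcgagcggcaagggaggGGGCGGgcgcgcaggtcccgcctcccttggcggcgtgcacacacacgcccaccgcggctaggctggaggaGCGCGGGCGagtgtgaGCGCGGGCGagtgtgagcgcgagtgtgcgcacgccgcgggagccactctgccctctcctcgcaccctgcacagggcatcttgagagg

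The Gabrd window held 4 matches to GGGCGG, 3 of which overlap each other by a single base, and none to GCGNGGGCG, whereas the Gabra4 window held 1 match to GGGCGG and 2 to GCGNGGGCG. GGGCGG was found in 33.1% of 33469 promoters of this length and GCGNGGGCG in 4.98%. The other 3 motifs searched, on both strands, were TATAAA (14.2% of promoters), CCAAT (37.5%) and TGACG (21.2%), none of which had a match in either window. The GC content was 73.7% for Gabrd and 70.7% for Gabra4, with 40 and 35 CpG dinucleotides, against medians of 51.7% and 7 over all promoters. Gabra5 had as rich a promoter (76.3% GC, 42 CpG, 1 match to GGGCGG) and a difference of −0.30 (SE 0.28). The promoters of Gabrb1 (49.3%), Gabrb2 (44.0%) and Gabra3 (39.3%) had less GC and no match to GGGCGG. High GC content was thus shared by Gabrd, Gabra4 and Gabra5. A link between GC content and the differences was not tested, and these matches describe the letters of the windows only.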

How the data were processed

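Total RNA from 8 rats was measured on 8 arrays of 45018 spots (41012 probes). Spots were quantified by the authors with Agilent Feature Extraction 9.5.1.1, per the file headers, in 1 channel, although the design text speaks of a reference design. The deposited intensity used here is linear and background-subtracted, and the whole-series table repeats it to within rounding. Here, outlier spots were left out, each array's 75th percentile of log2 intensity was subtracted and spots of a probe were averaged. Probes well above background on at least 4 of 8 arrays with at least 2 values per group were kept (27154). Groups were compared with limma 3.58.1 in R 4.3.3 (two-sided tests, threshold 0.05 after Benjamini-Hochberg adjustment across the kept probes), checked on simulated data. Correlations used all 40320 permutations. Probes were named through RefSeq (GRCr8). Where a gene had several probes, the brightest passing probe stood for it. Besides all members, the genes named are the 2 highest and 2 lowest by limma statistic in each gene list and those nearest each member in Pearson r, and other subunits were described as a list. Some genes that this rule names are not reported here, and Gad2 was named outside it. The members and lists were chosen with earlier results of these data known.

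Deviations from the group means of arrays with the same replicate number had r of 0.35, 0.51, −0.07 and −0.29, so the numbers were not taken to pair the rats. The labels do not say how surgery was done. The number of arrays limits the precision.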

Additional observations from a re-analysis of the deposited data

Results flagged for a closer look

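Among 28 sets of 4 arrays (13 subunits that passed the filter and the extrasynaptic minus synaptic value, in each group), 1 held an array far from the others, where chance gives about 1 in 20. Gabrg3, which encodes the gamma3 subunit, was at −6.42 in occlusion rat 2, and the nearest of the other occlusion rats was at −4.67. The gap was 0.884 of the range of the group, above Dixon's critical value for 4 arrays. The probe was not well above background in that rat or in 2 of the control rats.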

How the results depend on the processing

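All 19 alternatives gave 0 probes past the adjusted threshold. No member passed it under any of them, and 6 of the 7 members kept the sign of their difference throughout. Gabra2, whose difference is near 0, changed sign under quantile normalisation (0.00075), normexp background correction (0.0034), slide 1 alone (0.20), and without occlusion rat 1 (0.0098), occlusion rat 4 (0.064) or control rat 3 (0.22). The extrasynaptic minus synaptic difference was 0.49 on slide 1 alone, 1.86 on slide 2 alone and 0.53 with Gabra5 counted as extrasynaptic. It ranged over 0.89 to 1.44 with 1 rat left out, and was 1.14 without Gabra2, an alternative chosen after seeing the data. Leaving out 1 rat gave −0.13 to 0.22 for Gabra2, 0.03 to 0.48 for Gabra3, −0.47 to −0.11 for Gabra5, 0.16 to 0.37 for Gabrb1 and 0.22 to 0.60 for Gabrb2. Normexp gave 0.11 for Gabrb2 and 0.16 for Gabra3. The causes were not tested. With the replicate number as a block, 0 probes passed in limma (smallest adjusted p 0.451). The difference of each member was the same as without the block, with a smaller SE (0.41 against 0.51 for Gabrd). With 1 probe per gene and 4 rats per group, probe-specific error of a member could not be checked against a second probe.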
